A study of Mus musculus with 47 samples.

Results

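Transcripts of 10 enzymes of fatty acid synthesis, desaturation and elongation were followed across brainstem and hippocampus of mice on a standard or a high-fat diet. The genes were Acly, Acaca, Acacb, Fasn, Scd1, Scd2, Fads1, Fads2, Elovl5 and Elovl6, taken from both deposited count tables by their Ensembl mouse identifiers. They made up 10 of the 29858 genes counted in both tables, and all 10 passed the filter on low counts, a mean count of at least 50, in both regions. The mice were males of C57BL/6 background, either wild type (WT) or transgenic (TG), fed standard diet (SD) or high-fat diet (HFD) from 5 weeks to 12 months of age. TG mice were homozygous for a human transgene behind a Thy1 promoter that drives expression in neurons of the central nervous system, and WT controls came from a parallel colony of the same outcross, so genotype and colony cannot be told apart. Each of the 4 groups, WT SD, WT HFD, TG SD and TG HFD, held 6 libraries per region, apart from WT SD of brainstem with 5.

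Mammalian cells make fatty acids from cytosolic acetyl-CoA. ATP citrate lyase (Acly) releases acetyl-CoA from citrate, acetyl-CoA carboxylases (Acaca, Acacb) turn it into malonyl-CoA, and fatty acid synthase (Fasn) builds palmitate from both. Elovl6 lengthens palmitate to stearate, stearoyl-CoA desaturases (Scd1, Scd2) introduce the double bond of oleate, and Fads1, Fads2 and Elovl5 turn dietary essential fatty acids into long polyunsaturated ones. In brain these lipids enter the membranes of all cells and, in large amounts, myelin, which oligodendrocytes make. In liver, transcription of many of these genes is driven by sterol regulatory element-binding proteins and falls when polyunsaturated fatty acids are plentiful.

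Total counts ranged from 10020784 to 15078812 per library in brainstem and from 11945971 to 17328447 in hippocampus. Counts of the transgene were at least 36959 in every TG library and at most 50 in every WT library, so each library matched its genotype label. Markers of neurons, astrocytes and oligodendrocytes were present in every library, whereas the summed level of 5 adipocyte markers stayed at or below 2.34 CPM (counts scaled to the normalized library size). Choroid plexus markers varied from 13.9 to 2994 CPM among brainstem libraries, and their part in the results was not tested. Pairs of libraries of the same group differed by more than counting noise in 115 of 115 pairs. The study describes both regions as taken from the same animals, but no label ties a library of 1 region to one of the other, and all libraries entered the tests as independent samples. In bulk tissue, fewer cells of a type and less RNA per cell cannot be told apart.

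The start-site regions are shown for Fasn and Elovl5, since these members carried the most matches to the box bound by NF-Y, a partner of the sterol regulatory element-binding proteins, and since their library-to-library deviations were the most opposed pair in hippocampus. Each sequence holds the 250 bases before the RefSeq start site in GRCm38.p6, which is not the build of the deposited counts, read 5′ to 3′ on the gene's strand. Capitals mark CCAAT or its reverse complement.
Fasn, chr11:120824548-120824797, minus strand: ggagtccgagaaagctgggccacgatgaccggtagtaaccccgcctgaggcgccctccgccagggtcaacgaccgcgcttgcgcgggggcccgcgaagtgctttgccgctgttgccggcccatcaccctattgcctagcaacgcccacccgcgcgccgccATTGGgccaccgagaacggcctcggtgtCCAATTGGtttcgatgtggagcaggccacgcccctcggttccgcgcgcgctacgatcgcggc
Elovl5, chr9:77917115-77917364, plus strand: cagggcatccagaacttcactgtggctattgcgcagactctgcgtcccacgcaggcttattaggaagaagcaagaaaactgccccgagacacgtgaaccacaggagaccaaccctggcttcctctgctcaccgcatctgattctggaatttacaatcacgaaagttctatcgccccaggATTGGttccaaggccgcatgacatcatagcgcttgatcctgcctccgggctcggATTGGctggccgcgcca
In Fasn the matches began at bases -90, -62 and -59 from the start site, and the last of these overlapped its neighbour on the opposite strand. In Elovl5 they began at bases -71 and -17, and an E-box (CACGTG, printed in lower case) began at base -161.

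Windows of 300 bases, from 250 before to 50 after the start site, were found for 7 members, all but Scd1, Scd2 and Fads1. On either strand, CCAAT was present in 4 of the 7 (Acacb, Acly, Fasn and Elovl5) against 37.4% of 32851 RefSeq promoters of that length. The E-box was in 1 of the 7 against 7.15%, and the Sp1 box GGGCGG in 2 (Acly and Fads2) against 35.7%. The sterol regulatory element TCACNCCAC matched in 0 of the 7 and in 1.24% of all promoters. A match is a description of the letters in the window.

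In brainstem, Scd2 was by far the most abundant of the 10 transcripts per length. Its level was 527 ± 27.4 RPKM (SD, n = 23; reads per kilobase of exon, scaled to depth as CPM), against 118 ± 8.20 for Scd1. Acly followed at 75.1 ± 6.86 RPKM. Elovl5 (52.5 ± 2.76), Fads1 (49.3 ± 2.65) and Fads2 (45.6 ± 2.13) lay close together, with overlapping ranges between neighbours. Fasn, at 18.3 ± 3.61 RPKM, was the most variable of the abundant members, and its range overlapped that of Elovl6 (12.2 ± 0.981). The carboxylases were the lowest, with Acaca at 6.27 ± 0.542 and Acacb, the mitochondrial isoform, at 0.972 ± 0.134 RPKM.

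In hippocampus, Scd2 again came first at 279 ± 17.03 RPKM (SD, n = 24), and the order below it differed. Fads2 (49.5 ± 3.92), Fads1 (46.2 ± 3.21) and Scd1 (38.1 ± 4.19) came next, followed by Acly (27.6 ± 1.36), Fasn (23.2 ± 3.01) and Elovl5 (19.8 ± 1.70). Each of these 6 overlapped its neighbour in range, so their order is not sharp across libraries. Within libraries it was steadier, and Fads2 lay above Fads1 in 24 of 24. Elovl6 (8.03 ± 0.621), Acaca (4.75 ± 0.341) and Acacb (0.487 ± 0.0909 RPKM) closed the order in both regions. Of the 75-base windows of the longest Acaca transcript, 47.4% also occur in the gene model Gm5182, counted at 31.0 to 51.5 CPM in brainstem, so the Acaca level is uncertain. The share was 3.24% for Scd1, 1.8% for Scd2, both with other stearoyl-CoA desaturase genes among the matches, 2.28% for Elovl6 and 0 for the other 6.

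**Figure D1:**
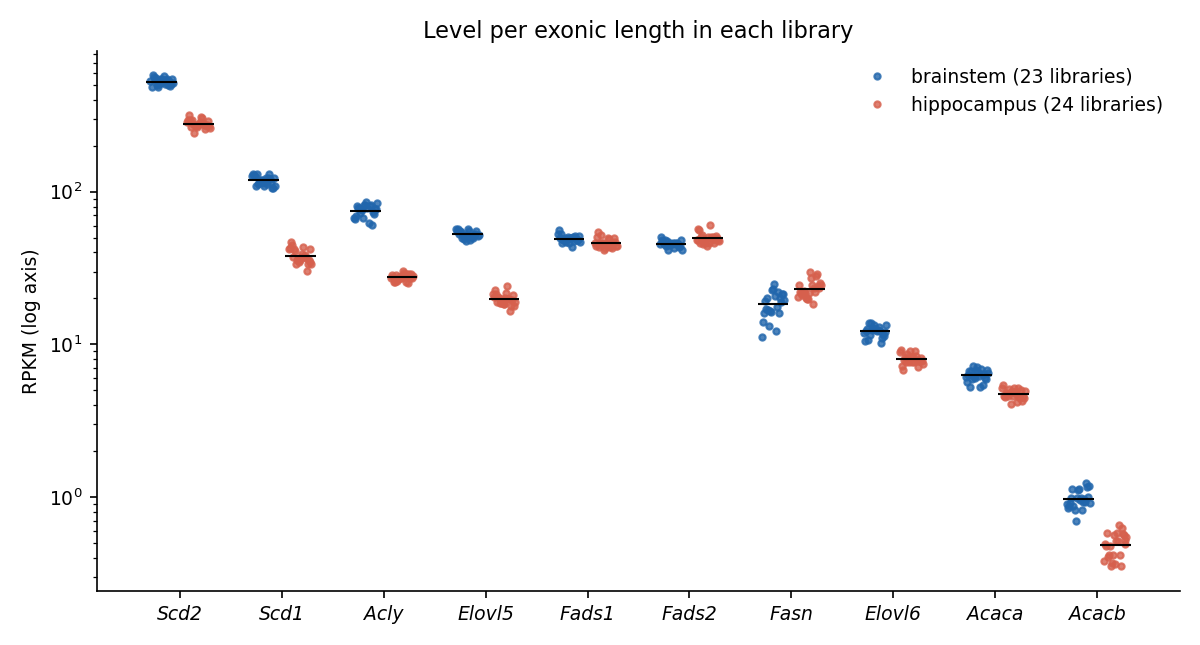
Level of the 10 genes per exonic length in each library, in RPKM on a log axis, with 1 point per library of brainstem (23) and hippocampus (24). Scd2 lies highest in both regions, at means of 527 and 279 RPKM, and Acacb lowest, at 0.972 and 0.487 RPKM.

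The regions were compared first, over the 4 groups. Hippocampus had lower transcript levels than brainstem for 7 of the 10 enzymes and a higher level for Fasn. A gene was called if its adjusted p did not exceed 0.05 and its log2 fold change was 0.3 or more in size, with p from edgeR's quasi-likelihood test and Benjamini-Hochberg adjustment over all tested genes. By this rule 8 of 10 members were called, where 60.2% of 13458 genes were. Lower levels in hippocampus were called for 7 members against 31% of all genes. The median log2 difference was -0.76 over the members and -0.02 over all genes tested.

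Scd1, which makes oleate and palmitoleate, showed the largest difference. Its brainstem levels lay between 514 and 643 CPM (median 581), against 147 to 229 CPM (median 182) in hippocampus. No hippocampal library came near the lowest of brainstem. The fitted log2 difference was -1.64 (SE 0.0307, edgeR adjusted p = 4.75e-42), a level 3.11-fold lower in hippocampus. Scd2, the main stearoyl-CoA desaturase of brain, was measured at 2631 to 3161 CPM in brainstem, against 1331 to 1734 CPM in hippocampus, with medians of 2879 and 1519. Here too the regions were fully separated, by a log2 difference of -0.92 (SE 0.0231, edgeR adjusted p = 1.73e-36).

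Acly was measured at 320.4 to 449.8 CPM (median 407) in brainstem and at 132 to 161 CPM (median 147) in hippocampus. These ranges were disjoint, and the log2 difference was -1.45 (SE 0.0326, edgeR adjusted p = 1.53e-38). Elovl5 lay between 167 and 202 CPM (median 184) in brainstem and between 58.7 and 85.3 CPM (median 69.6) in hippocampus. Its log2 difference was -1.41 (SE 0.0264, edgeR adjusted p = 5.19e-42), again without overlap. Acacb, counted with 45 to 162 reads per library, was 1.997-fold lower in hippocampus (log2 -0.998, SE 0.0637), and Elovl6 1.52-fold lower (log2 -0.60, SE 0.0328). In all, the ranges of 6 members did not overlap between the regions, where those of 35% of all tested genes did not. Acaca was 1.32-fold lower in hippocampus (log2 -0.40, SE 0.0341, edgeR adjusted p = 3.45e-15), with overlapping ranges of 89.7 to 123 and 69.7 to 92.1 CPM.

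Fasn was the exception among the synthesis enzymes. Brainstem libraries spanned 123 to 273 CPM (median 208) and hippocampal ones 200.4 to 324 CPM (median 245). The ranges overlapped widely, and the mean difference was 0.34 (log2, SE 0.0631, edgeR adjusted p = 4.05e-06). By group, Fasn was called higher in hippocampus in WT SD, WT HFD and TG SD, at log2 differences of 0.31, 0.39 and 0.43. In TG HFD the difference was 0.21 (95% interval -0.04 to 0.46, edgeR adjusted p = 0.125). The other 7 called members were called lower in each of the 4 groups.

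The front-end desaturases of the polyunsaturated series differed little between the regions. Fads1, the delta-5 desaturase, was measured at 209.9 to 270.3 CPM in brainstem and 200.7 to 262 CPM in hippocampus. Fads2, the delta-6 desaturase, was measured at 137 to 166 and 146 to 200.2 CPM. The ranges of Fads1 overlap almost entirely and those of Fads2 in part. The log2 differences were -0.09 (SE 0.0270, edgeR adjusted p = 0.00195) and 0.12 (SE 0.0265, edgeR adjusted p = 6.73e-05), neither past the fold threshold.

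**Figure D2:**
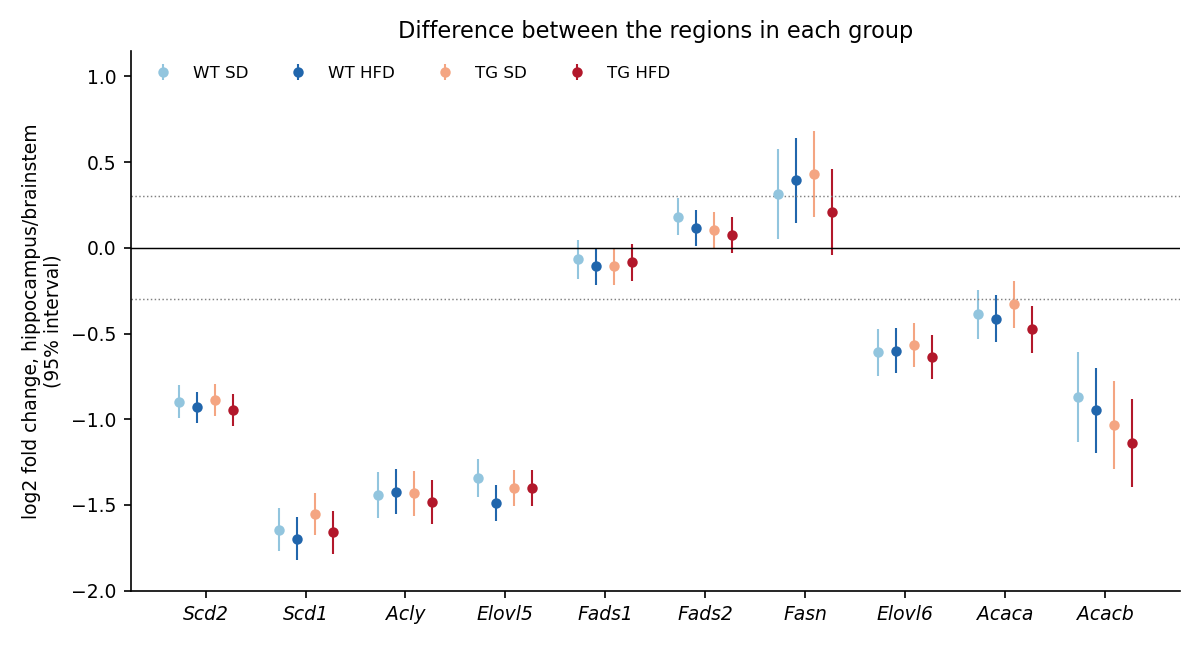
Fitted log2 fold change, hippocampus over brainstem, of each gene in each of the 4 groups, with 95% intervals. Scd1, Acly and Elovl5 lie between -1.70 and -1.34 in every group, Fads1 and Fads2 between -0.11 and 0.18, and Fasn above 0.

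Cell type markers also differed between the regions. All 10 oligodendrocyte markers were called lower in hippocampus, with a median log2 difference of -2.09, and their summed level was 13251 to 21802 CPM in brainstem and 3204 to 4992 CPM in hippocampus. Of 11 neuron markers, 7 were called lower and 4 higher (median -0.42). For astrocytes, 4 of 8 were lower and 2 higher (median -0.17), and 6 of 7 endothelial markers were lower (median -0.70). Of all genes, 31% were called lower and 60.2% in either direction. The part of these markers in the differences of the members was not tested.

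The difference between the regions did not depend detectably on the diet. For the region by diet term, 0 of 10 members were called in WT and 0 in TG (edgeR and DESeq2), where 0% of all genes were, and 0 had an unadjusted p of at most 0.05. The lowest was that of Elovl5 in WT (log2 -0.14, 95% interval -0.30 to 0.01, edgeR adjusted p = 1.0). Fasn in TG had an estimate of -0.22 with an interval from -0.57 to 0.14.

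The diets were compared within each genotype and region. No member was called, and most estimates lay slightly below 0. The counts of called members were 0 in WT and 0 in TG of brainstem and 0 in WT and 0 in TG of hippocampus (edgeR and DESeq2), where percentages of 0, 0.0075, 0 and 0 of all tested genes were called. Estimates lay below 0 for 6, 9, 7 and 9 of the 10 members in these 4 comparisons, against 53.9, 50.7, 47.01 and 51.4% of all genes. The members' median log2 fold changes were -0.02, -0.07, -0.04 and -0.09, and those of all genes -0.01, -0.00, 0.00 and -0.00. Apart from Acacb, all 95% intervals of the members lay between -0.33 and 0.14, and those of Acacb reached from -0.37 to 0.50. These estimates come from a model with 4 surrogate variables, terms estimated from the data to absorb unlabelled variation. Without them, estimates lay below 0 for 7, 6, 8 and 8 of the 10 members, against 52.7, 48.5, 51.7 and 53.8% of all genes. The members' medians were then -0.02, -0.04, -0.06 and -0.09, so the count of 9 in TG brainstem depends on these terms.

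At an unadjusted p of at most 0.05, members were lower on HFD in TG mice. These were 3 in brainstem (Scd1, Scd2 and Elovl5) and 6 in hippocampus (Scd1, Scd2, Elovl5, Fasn, Acaca and Fads2), where 3.44 and 3.89% of all genes were. In WT mice there were 0 in each region, against 3.3 and 2.56% of all genes. Members that were higher at this p numbered 0 in all 4 comparisons. Without the 4 surrogate variables, the numbers lower were 2 and 3 in TG, where 3.15 and 1.39% of all genes were, and 0 and 3 in WT, against 3.28 and 2.54%. The difference between genotypes is given by its own test further on.

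**Figure D3:**
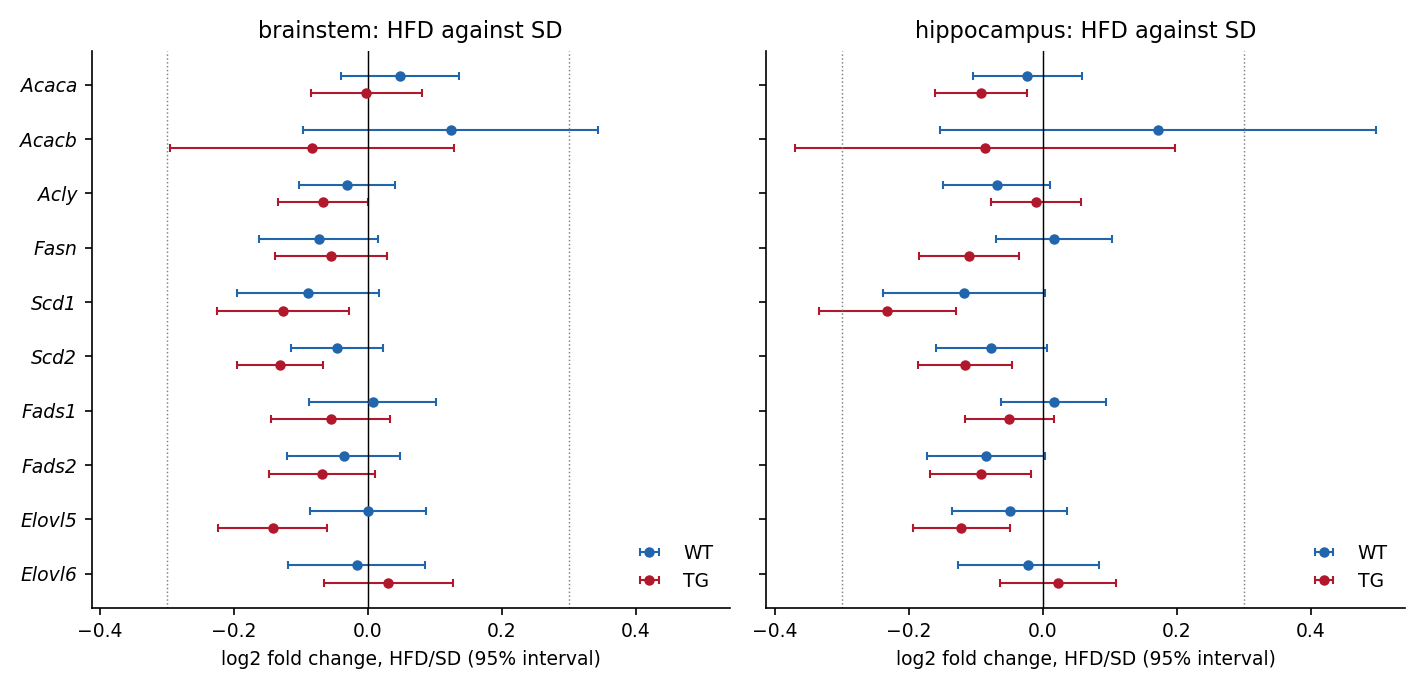
Fitted log2 fold change, HFD over SD, of each gene in WT and TG mice of each region, with 95% intervals. Scd1 in TG hippocampus lies farthest below 0, at -0.23, and the widest intervals are those of Acacb.

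Acly and the carboxylases showed little. Acly of brainstem read 450, 411, 328, 428 and 432 CPM in the WT SD libraries, and 320.4, 399 and 442 CPM (lowest, median and highest) in WT HFD. In TG the corresponding values were 352, 389.7 and 424 CPM on SD and 357, 402 and 434 CPM on HFD. All 4 groups overlapped. The log2 fold change was -0.03 in WT (SE 0.0350, edgeR adjusted p = 0.962) and -0.07 in TG (SE 0.0328, edgeR adjusted p = 0.722), although the raw TG median was higher on HFD, and without surrogate variables the TG estimate was 0.05. In hippocampus the estimates were -0.07 and -0.01.

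Acaca, the cytosolic carboxylase, ranged from 77.6 to 92.1 CPM (median 81.7) in TG SD of hippocampus and from 69.7 to 87.6 CPM (median 80.3) in TG HFD. The groups overlapped over most of their ranges. The log2 fold change was -0.09 (SE 0.0337, edgeR adjusted p = 0.539), and in the other 3 comparisons it lay between -0.02 and 0.05. Acacb had the largest estimates in WT of both regions, with the largest errors. In brainstem it read 9.21, 9.48, 7.88, 8.99 and 9.32 CPM in WT SD and 8.77, 10.50 and 11.9 CPM (lowest, median and highest) in WT HFD (log2 fold change 0.12, SE 0.107, edgeR adjusted p = 0.962). In WT hippocampus it spanned 3.41 to 6.36 CPM (median 4.99) on SD and 4.75 to 6.02 CPM (median 5.37) on HFD, a change of 0.17 (SE 0.160, edgeR adjusted p = 0.913). The HFD values fell within the SD range there.

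Fasn, which completes palmitate, was spread more widely, relative to its level, than any other abundant member. In WT SD of brainstem it read 273, 226, 134, 192 and 239.5 CPM, the widest span relative to its level of any member in that group. In TG brainstem it ran from 123 to 221 CPM (median 181) on SD and from 144 to 252 CPM (median 182) on HFD, with a fitted change of -0.06 (SE 0.0411, edgeR adjusted p = 0.845). That sign depends on the surrogate variables, since without them the change was 0.15 (SE 0.150). In TG hippocampus the groups were tighter, at 222 to 269.5 CPM (median 237) on SD and 216 to 246 CPM (median 227) on HFD. They overlapped, and the change was -0.11 (SE 0.0365, edgeR adjusted p = 0.459). WT hippocampus ran from 200.4 to 324 CPM on SD and from 256 to 317 CPM on HFD, with a change of 0.02 (SE 0.0426).

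Both stearoyl-CoA desaturases had estimates below 0 in all 4 comparisons. For Scd1 in TG hippocampus, the SD libraries lay at 183 to 229 CPM (median 208) and the HFD libraries at 166 to 201 CPM (median 175). Of the 6 HFD libraries, 5 lay below all SD libraries, and 1, at 201 CPM, among them. The log2 fold change was -0.23 (SE 0.0501, 95% interval -0.33 to -0.13, edgeR adjusted p = 0.149), a level 1.17-fold lower, and the gene ranked 5 of 13272 by p. In WT hippocampus Scd1 ran from 179 to 213 CPM (median 185) on SD and from 147 to 205 CPM (median 168) on HFD. These groups overlapped, and the change was -0.12 (SE 0.0595, edgeR adjusted p = 0.795).

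In brainstem Scd1 read 567, 605, 549.5, 600.3 and 635 CPM in WT SD and 514, 544 and 599.7 CPM (lowest, median and highest) in WT HFD. TG SD ran from 536 to 643 CPM (median 625.4) and TG HFD from 529.9 to 587 CPM (median 559). In TG, 1 SD library at 536 CPM lay among the HFD values and the other 5 above all of them. The changes were -0.09 in WT (SE 0.0520, edgeR adjusted p = 0.924) and -0.13 in TG (SE 0.0484, edgeR adjusted p = 0.578).

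Scd2 of TG brainstem ranged from 2664 to 3161 CPM (median 2969) on SD and from 2631 to 2994 CPM (median 2790.2) on HFD. The groups overlapped widely on this scale. With its small error, the change of -0.13 (SE 0.0311, edgeR adjusted p = 0.288) ranked 11 of 13340 genes, and without surrogate variables it was -0.07 (SE 0.0490). WT brainstem read 2863, 3113, 2756, 2941 and 3002 CPM on SD and 2703, 2791 and 2973 CPM (lowest, median and highest) on HFD, a change of -0.05 (SE 0.0335). In hippocampus, TG ran from 1444 to 1734 CPM (median 1604) on SD and from 1331 to 1526 CPM (median 1481) on HFD. The HFD median lay above the lowest SD library, so the groups overlapped, and the change was -0.12 (SE 0.0344, edgeR adjusted p = 0.327). WT hippocampus ran from 1518 to 1680.4 CPM (median 1541) and from 1413 to 1587 CPM (median 1472), a change of -0.08 (SE 0.0405, edgeR adjusted p = 0.825).

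Of the polyunsaturated desaturases, Fads2 passed an unadjusted p of 0.05 in TG hippocampus. It ran from 153 to 187 CPM (median 162) on SD and from 146 to 172 CPM (median 153) on HFD, a change of -0.09 (SE 0.0368, edgeR adjusted p = 0.552). The HFD median lay at the lowest SD library, and the groups overlapped. In WT hippocampus it ran from 151 to 200.2 CPM (median 166) and from 152 to 169 CPM (median 158), with the HFD values inside the SD range and a change of -0.08 (SE 0.0434). Fads1 had log2 fold changes of -0.06 to 0.02 over the 4 comparisons, with edgeR adjusted p from 0.825 to 0.997.

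Elovl5, which elongates polyunsaturated chains, was the single member whose diet groups did not overlap. In TG brainstem it ran from 184.9 to 202 CPM (median 194) on SD and from 167 to 184.7 CPM (median 178) on HFD. All HFD libraries thus lay below all SD libraries, by a narrow margin, as they did for 0.0975% of tested genes. The change was -0.14 (SE 0.0398, edgeR adjusted p = 0.464). In WT brainstem the groups overlapped, with 199.7, 195, 171, 178 and 179 CPM on SD, 176 to 193 CPM (median 184) on HFD and a change of 0.00 (SE 0.0422, edgeR adjusted p = 1.0). In the other 3 comparisons 0 members had all HFD libraries below all SD libraries, against 0.165% of genes in WT brainstem, 0.196% in WT hippocampus and 0.00754% in TG hippocampus.

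In TG hippocampus Elovl5 ran from 67.0 to 80.2 CPM (median 73.6) on SD and from 64.7 to 70.6 CPM (median 65.9) on HFD. The HFD libraries lay in and below the lower part of the SD range, and the change was -0.12 (SE 0.0353, edgeR adjusted p = 0.304). WT hippocampus, from 64.4 to 85.3 CPM (median 70.5) on SD and from 58.7 to 74.5 CPM (median 64.7) on HFD, had a change of -0.05 (SE 0.0422), or -0.15 (SE 0.0623, adjusted p = 0.421) without surrogate variables. Elovl6, the elongase of palmitate, had changes between -0.02 and 0.03, with edgeR adjusted p from 0.938 to 0.982.

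**Figure D4:**
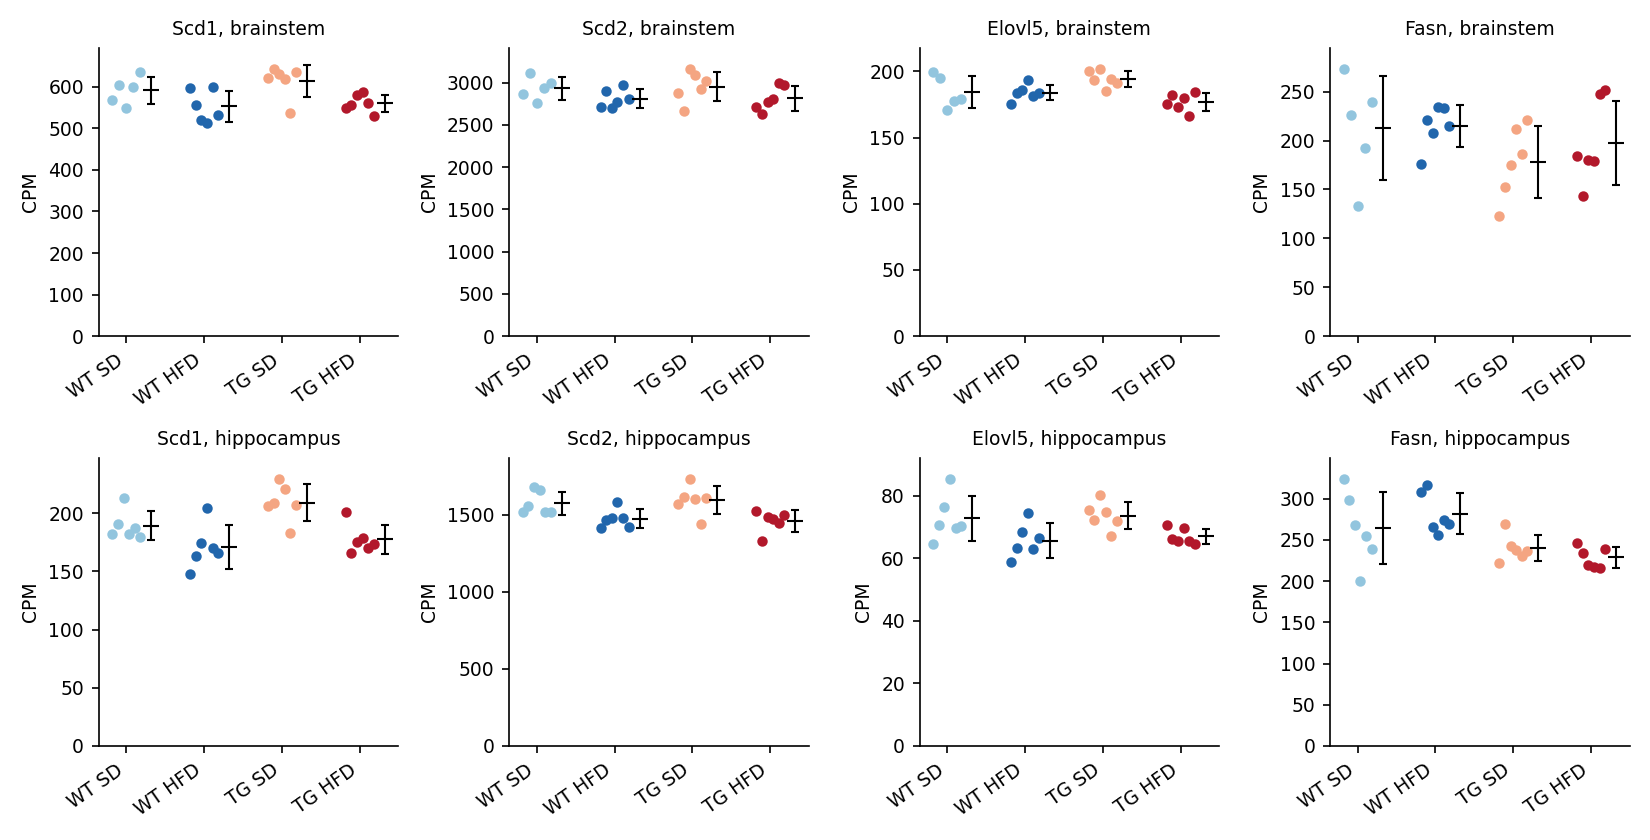
Normalized level (CPM, axis from 0) of Scd1, Scd2, Elovl5 and Fasn in each library by group, with 1 point per library and the group mean and SD as a cross and bar, for brainstem (upper row) and hippocampus (lower row). Scd1 and Scd2 lie slightly lower on HFD in both genotypes, and Fasn of brainstem is the most scattered.

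Averaged over the genotypes, a contrast chosen after seeing the data, the diet difference was also under the call threshold for all 10 members (0 called in each region by edgeR and DESeq2, where 0.0075 and 0% of all genes were called). In each region 5 members were lower at an unadjusted p of at most 0.05, where 4.54% of genes were in brainstem and 3.31% in hippocampus. In hippocampus these were Scd1, Scd2, Fads2, Elovl5 and Acaca. Scd1 had the lowest p among them (log2 -0.18, SE 0.0380, edgeR adjusted p = 0.156, rank 3), followed by Scd2 (-0.10, adjusted p = 0.244). In brainstem Scd2 (-0.09, SE 0.0215, edgeR adjusted p = 0.157, rank 26), Scd1 (-0.11), Elovl5 (-0.07), Fasn (-0.06) and Acly (-0.05) made up the 5. The sign of Fasn depends on the surrogate variables, since its mean CPM in brainstem was higher on HFD in WT (213 on SD, 215 on HFD) and in TG (178 and 198), and its estimate without them was 0.08. Without surrogate variables the members lower at that p were 2 in brainstem and 4 in hippocampus, where 2.9 and 2.22% of genes were.

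In TG hippocampus some markers of other cells had an unadjusted p of at most 0.05 between the diets. Of all genes there, 7.08% passed this p, 3.89% passed it and were lower on HFD, and 0 were called. Of 8 astrocyte markers, 5 were lower on HFD at an unadjusted p of at most 0.05 (Aqp4, Gfap, Slc1a2, Aldh1l1 and Gja1), with a median log2 fold change of -0.11 over the list and 0 called, while their summed level ran from 4943 to 5950 CPM on SD and from 4839 to 5903 CPM on HFD. All 4 tested blood markers, haemoglobin genes, were higher (median 0.42), with sums of 203 to 368 CPM on SD and 301 to 469 CPM on HFD. The 3 tested choroid plexus markers had estimates below 0 (median -0.51), of which Clic6 (-0.71) passed this p, as did the ependymal marker Foxj1 (-0.32). Of 11 neuron markers, Slc17a6 (0.72) and Tubb3 (0.08) were higher and Slc17a7 lower (-0.06). Oligodendrocyte markers had a median fitted change of 0.01 there and 0 of 10 at that p. Without surrogate variables, the mean log2 level of this list differed by -0.05 between the diets in TG hippocampus and by -0.09 in WT hippocampus. In brainstem it differed by -0.06 in TG and 0.03 in WT. In TG brainstem, 2 of 8 astrocyte, 2 of 7 endothelial and 1 of 6 oligodendrocyte precursor markers were lower at that p, and 1 neuron marker was higher. In WT hippocampus, 1 neuron and 1 choroid plexus marker were lower. There, 1 astrocyte, 1 microglial and 1 meningeal or fibroblast marker were higher. In WT brainstem, 1 choroid plexus marker was lower. The part of these markers in the values of Scd1, Scd2, Elovl5, Fasn, Acaca and Fads2 was not tested.

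Whether the diet acted differently in the genotypes was tested by the genotype by diet term. For this term 0 of 10 members were called in either region (edgeR and DESeq2), where 0.0075% of genes were in brainstem and 0% in hippocampus. Elovl5 of brainstem had a difference of -0.14 between the diet effects of TG and WT (SE 0.0615, edgeR adjusted p = 0.993). For Fasn of hippocampus it was -0.13 (SE 0.0575, edgeR adjusted p = 0.802). They were the 1 member of each region with an unadjusted p of at most 0.05, where 4.83% of genes in brainstem and 5.98% in hippocampus passed it. Without surrogate variables neither passed it, and Elovl6 of brainstem did (0.20, SE 0.0949, adjusted p = 0.632). For Scd1 the term was -0.04 in brainstem (95% interval -0.19 to 0.12) and -0.11 in hippocampus (-0.28 to 0.05), so its diet effect in TG was not shown to differ from that in WT.

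Genotypes were also compared on each diet. No member was called on SD or HFD in either region (0 by edgeR and 0 by DESeq2), where 0.142 and 0.0525% of genes were called in brainstem and 0.098 and 0.226% in hippocampus, in that order of diets. At an unadjusted p of at most 0.05, TG libraries had higher Fads2 in brainstem on SD (log2 0.08, edgeR adjusted p = 0.466) and higher Scd1 in hippocampus on SD (0.14, edgeR adjusted p = 0.377). That is 1 member in each, where 10.5% and 9.08% of genes passed this p in either direction, and 0 members in brainstem on HFD, against 5.59%. On HFD, hippocampus of TG mice had lower Acacb (-0.42, SE 0.187, edgeR adjusted p = 0.375), Elovl5 (-0.12, adjusted p = 0.337) and Fasn (-0.11, adjusted p = 0.425), 3 members where 11.3% of genes passed. The sign of Elovl5 depends on the surrogate variables, since it was at 0.04 (SE 0.0623) without them, and its mean was 65.6 CPM in WT HFD and 67.0 CPM in TG HFD. For Fasn the value without surrogate variables was -0.29 (SE 0.0764, adjusted p = 0.0167), just short of the fold threshold. Over the processing settings listed further on it ran from -0.29 to -0.09.

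The enzymes around the 10 members were grouped into 4 lists. Of the other elongation and desaturation enzymes, 14 of 17 were tested between the regions, and 11 were called lower in hippocampus and 1, Fads3, higher (0.37). Over all 13458 genes tested between the regions, 60.2% were called in either direction and 31% were called lower in hippocampus. The largest differences were those of Elovl7 (-2.01), Elovl1 (-1.76), both elongases of saturated and very long chains, and Fads6 (-1.52). Scd3, a further stearoyl-CoA desaturase, was lower by a log2 difference of -0.96, and Tecr and Hsd17b12, which complete each elongation cycle, were at -0.97 and -0.86. Elovl2, Scd4, Hacd1, Hacd3 and Degs1 were the others called lower.

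Genes that supply acetyl-CoA, NADPH and cofactors followed the same direction in most cases. Among the 12 tested, 8 were lower in hippocampus, with log2 differences of -1.15 for the citrate carrier Slc25a1 and -1.15 for G6pdx, which makes NADPH. Acss2, which makes acetyl-CoA from acetate, was at -0.64, malic enzyme Me1 at -0.59, and Mid1ip1, an activator of acetyl-CoA carboxylase, at -0.89, beside Pgd, Idh1 and Oxsm. Thrsp (0.62) and Mcat (0.42) were higher. Of 16 tested genes of acyl-CoA and glycerolipid synthesis, 7 were lower, led by Gpat3 (-2.76) and Lpin1 (-1.95), and 5 higher, led by Dgat2 (2.45), which makes triglyceride, and Acsl4 (1.07). Acsl3, Acsl6, Agpat4, Agpat5 and Dgat1 were the other lower and Acsl5, Agpat1 and Lpin2 the other higher genes. Beside the counts of both lists, 31% of all genes were called lower and 60.2% in either direction.

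Among the regulators, 9 of 14 were tested. Srebf1, whose product drives lipogenic genes in liver, was lower in hippocampus by -0.33 (log2, SE 0.0595), whereas Srebf2, the regulator of sterol synthesis, and its escort Scap were higher by 0.54 and 0.56. Insig1, a target of both that retains them in the endoplasmic reticulum, differed most, by -1.51 (SE 0.0323), with 128 to 179 CPM in brainstem and 45.8 to 70.8 CPM in hippocampus. Nr1h2 was lower by -0.45. Mlxipl and Nr1h3, with mean counts of 30.4 and 42.7 in brainstem and 25.1 and 28.8 in hippocampus, stayed under the filter.

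Between the diets, 0 genes of these 4 lists were called in any of the 4 comparisons by edgeR, and 19 values had an unadjusted p of at most 0.05, 15 of them lower on HFD. They were 9.41% of the 202 values, where 5.43 and 6.91% of all genes passed this p in WT and TG brainstem and 6.41 and 7.08% in WT and TG hippocampus. In TG hippocampus these were Insig1 (-0.19, SE 0.0631, edgeR adjusted p = 0.491), Gpam, which starts glycerolipid synthesis (-0.11), and Tecr (0.08). TG brainstem had Scd3 (-0.22, SE 0.0704, edgeR adjusted p = 0.52), Mid1ip1 (-0.13), Me1 (-0.08), Mcat (-0.21) and 4 acyltransferase or acyl-CoA ligase genes lower, and Dgat1 higher (0.25). In WT brainstem, Me1 (-0.09) and Mid1ip1 (-0.09) were lower and Mcat higher (0.22), the opposite of its value in TG. The mean of Mid1ip1 in WT brainstem was 94.0 CPM on SD and 96.5 CPM on HFD, so its fitted sign depends on the surrogate variables. Scd3 of TG brainstem averaged 43.2 CPM on SD and 41.8 CPM on HFD, with ranges of 34.0 to 52.3 and 29.4 to 52.3 CPM. In WT hippocampus, Me1 (-0.10), Pgd (-0.14) and Gpam (-0.11) were lower and Scap higher (0.11). Srebf1 had estimates of -0.03, -0.09, -0.05 and 0.06 and Srebf2 of 0.02, -0.02, -0.00 and -0.02, in the order of WT and TG brainstem and WT and TG hippocampus. Insig1 was at -0.07, -0.07, -0.14 and -0.19 in the same order, and Acss2 at 0.06, -0.09, -0.07 and -0.01. These estimates come from the model with surrogate variables, and list genes were not reported without them. The mean CPM of Srebf1 went against the fitted sign in all 4 comparisons. It was 54.0 on SD and 59.4 on HFD, then 48.5 and 49.7, 42.8 and 45.6, and 39.7 and 39.5. Srebf2 did so in TG brainstem (110 and 115 CPM) and WT hippocampus (183 and 198 CPM) only.

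The members did not vary as 1 block among the mice of a group. After subtraction of the group means, the 45 pairs of members had correlations (Pearson's r over 23 libraries) from -0.22 to 0.77 in brainstem, with a median of 0.22 and 34 of the 45 above 0. In hippocampus (24 libraries) they ran from -0.61 to 0.86, with a median of 0.10, and 24 of the 45 were above 0. All values of a pair come from the same libraries and share their depth and base composition. In brainstem the closest pairs joined the synthesis enzymes, Acly with Fasn (0.77), Acaca with Elovl6 (0.72) and Acaca with Acly (0.68). In hippocampus the desaturases went together, Fads1 with Fads2 (0.86) and Scd1 with Scd2 (0.79), whereas Fasn and Elovl5, whose start-site sequences are given above, were opposed (-0.61).

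The same deviations were set beside marker lists and the GC slope of a library, its trend of log2 deviation with the GC content of genes, per 10% GC. In brainstem, Acly went with neuron markers (r = 0.89 over 23 libraries) and against oligodendrocyte markers (-0.71), and so did Acaca with the latter (-0.70). Fasn, the member of highest GC content (57.9%), went with the GC slope (0.83) and with neuron markers (0.75). In hippocampus, Fads1 (0.89), Fads2 (0.86), Elovl5 (0.80), Scd1 (0.73) and Scd2 (0.67) went with astrocyte markers over 24 libraries. Scd2 (0.68) and Elovl5 (0.66) also went with oligodendrocyte markers. All of these members went against neuron markers there, from -0.64 for Fads1 to -0.30 for Scd1, while Acaca went with them (0.69). In brainstem their r with astrocyte markers was only 0.04 to 0.32. No share over all genes is given for these values. Elovl6 of hippocampus, of the lowest GC content (44.0%), went against the GC slope (-0.75). GC slopes ran from -0.33 to 0.18 in brainstem and from -0.19 to 0.17 in hippocampus, and their medians were highest in WT HFD of both regions (0.13 and 0.12). A fit with a GC offset was run for each member, and its changes of sign are listed further on. The part of these cell types in the differences between groups was not tested for single members.

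**Figure D5:**
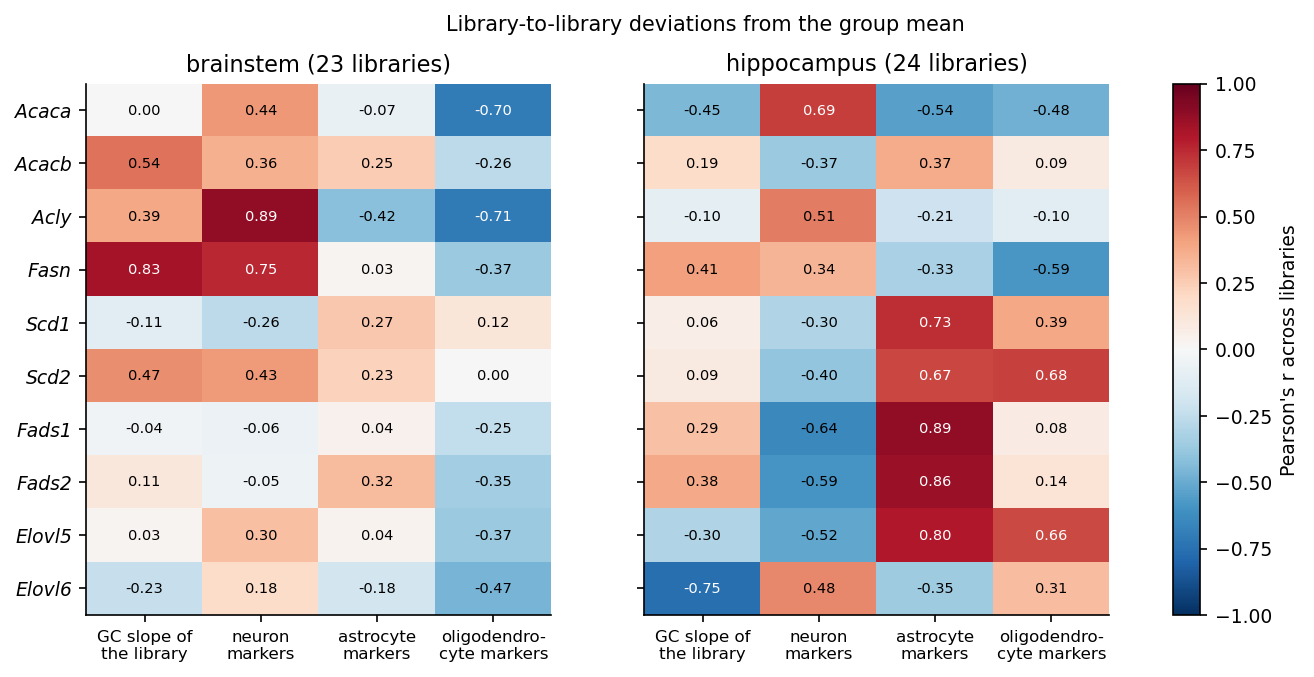
Pearson's r, across the libraries of a region and after subtraction of group means, of each gene with the GC slope and with the mean level of neuron, astrocyte and oligodendrocyte markers. In brainstem the strongest values are those of Acly with neuron markers (0.89) and Fasn with the GC slope (0.83), and in hippocampus those of Fads1 and Fads2 with astrocyte markers (0.89 and 0.86).

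The genes most like the mean of the 10 scaled members were Mast2 (r = 0.92), Spen (0.91) and Kif1a (0.90) over the 23 brainstem libraries. Over the 24 hippocampal libraries they were Gja1 (0.81), a gap junction protein of astrocytes, Kcnj10 (0.80), an astrocytic potassium channel, and Slc1a2 (0.78), an astrocytic glutamate transporter. Gja1 and Slc1a2 belong to the astrocyte list used above. These values are descriptions over libraries of a shared depth and composition.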

How the data were processed

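Poly(A)-selected, 75-base single-end libraries of 47 brainstem and hippocampus samples were analysed. The authors aligned the reads with STAR 2.7.9a to the Ensembl mouse genome (release 104) with the transgene added, and deposited whole-number counts per gene without normalization; the counting step is not given in the sources used here, and the labels also name FastQC 0.11.9 and DESeq2 1.32.0. Sample groups came from the labels. Symbols, exonic length and GC content came from the GENCODE annotation of GRCm38 by Ensembl identifier.

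Those tested had a mean count of 50 or more, 13340 genes in brainstem and 13272 in hippocampus, with 4 groups in 1 edgeR 4.0.16 quasi-likelihood model per region (R 4.3.3, TMM normalization) and 4 surrogate variables (sva 3.50.0, permutation method). The regions were compared in 1 model of 8 groups over 13458 genes, with the number of surrogate variables set to 0 and not estimated. P-values were adjusted by Benjamini-Hochberg over all tested genes. CPM used TMM library sizes. Fold changes come from the models and so can differ from ratios of raw CPM. Where separate cultures or animals are not tracked by the labels, p-values measure the spread between samples. All 10 members are named, and values are given for the largest estimate of each diet comparison and for members with an unadjusted p of at most 0.05. The members, lists and rule were chosen with earlier results of these data known. The models were run on simulated counts with planted changes larger than any diet estimate here and without hidden variation. That run therefore cannot tell how well diet differences of this size are recovered. Alternatives were DESeq2 1.42.0, RLE, 0 or 2 surrogate variables (4 between the regions), a GC offset, no filter, no fold threshold, the replicate number as a block, and each library left out.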

Additional observations from a re-analysis of the deposited data

Results flagged for a closer look

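In 80 sets of libraries, the 10 genes in the 8 groups, the most extreme library of each set was compared with its neighbour by Dixon's criterion at the 95% level, which flags about 1 set in 20 by chance. It singled out 5. Scd1 was at 536 CPM in TG SD replicate 7 of brainstem, where the next library was at 618 CPM. In hippocampus, Scd1 was at 213 CPM in WT SD replicate 5 (next 191) and at 201 CPM in TG HFD replicate 3 (next 179). Fads2 was at 140.4 CPM in WT SD replicate 6 of brainstem (next 149) and at 200.2 CPM in WT SD replicate 5 of hippocampus (next 167). WT SD replicate 5 of hippocampus is thus high for both Scd1 and Fads2.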

How the results depend on the processing

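The counts of called members kept to within 1.5 times their main value under all 443 alternatives of those counts, 8 between the regions (10 without the fold threshold, where Fads1 at -0.09 and Fads2 at 0.12 also passed) and 0 between diets, genotypes and their interaction. Of 2679 alternative values of single members, 113 took the opposite sign, in 31 of 95 results. These 95 cover each member between the regions, between the diets and for the genotype by diet term, and the 5 values of TG against WT given above, whose alternatives were chosen after seeing the data. The largest of the 31, Elovl5 of TG against WT on HFD in hippocampus, had a main log2 value of -0.12, and 0.035 with 0 and 0.031 with 2 surrogate variables. None of these results was called, and the cause was not tested. With 0 surrogate variables the opposite sign was found in TG brainstem Acaca 0.092, Acly 0.052 and Fasn 0.15, in WT brainstem Acaca -0.025, Elovl5 -0.0048 and Fasn 0.012, in genotype by diet of brainstem Acaca 0.12 and Acly 0.12, in TG hippocampus Acly 0.00011, in genotype by diet of hippocampus Elovl5 0.012, in genotype mean of brainstem Elovl6 -0.00046 and Fasn 0.082, in genotype mean of hippocampus Elovl6 -0.031 and Fasn 0.011, in WT hippocampus Fads1 -0.014. With 2 it was found in TG brainstem Acaca 0.043, in genotype by diet of brainstem Acaca 0.042 and Acly 0.048, in WT brainstem Elovl5 -0.00082, in genotype by diet of hippocampus Elovl5 0.021, in genotype mean of hippocampus Elovl6 -0.040 and Fasn 0.015, in WT hippocampus Fads1 -0.0010. With a GC offset and 0 surrogate variables it was found in TG brainstem Acaca 0.093, Acly 0.045 and Fasn 0.11, in WT brainstem Acaca -0.014, in genotype by diet of brainstem Acaca 0.11 and Acly 0.14, in genotype mean of hippocampus Acacb -0.030 and Elovl6 -0.012, in TG hippocampus Acly 0.0016, in WT hippocampus Fads1 -0.027 and Fasn -0.010, in genotype by diet of hippocampus Fads2 0.015, in genotype mean of brainstem Fasn 0.012. Without the filter on low counts it was found in TG brainstem Acaca 0.059, Acly 0.012 and Fasn 0.014, in WT brainstem Acaca -0.0062 and Elovl5 -0.014, in genotype by diet of brainstem Acaca 0.065 and Acly 0.11, in TG hippocampus Acly 0.020, in genotype mean of brainstem Elovl6 -0.0012, in genotype mean of hippocampus Elovl6 -0.0012, in genotype by diet of hippocampus Fads2 0.0028. With DESeq2 it was found in genotype by diet of hippocampus Fads2 0.00071, and with RLE normalization in genotype by diet of hippocampus Fads2 0.00030. When single libraries were left out, 57 values of 21 results changed sign, with ranges in TG brainstem Acaca from -0.051 to 0.022, in WT hippocampus Acaca from -0.038 to 0.040, Elovl6 from -0.053 to 0.014 and Fasn from -0.016 to 0.11, in genotype mean of brainstem Acaca from -0.0065 to 0.035, Acacb from -0.014 to 0.062 and Elovl6 from -0.0083 to 0.029, in genotype mean of hippocampus Acacb from -0.025 to 0.077, Acly from -0.056 to 0.00046, Elovl6 from -0.018 to 0.015 and Fasn from -0.068 to 0.0067, in TG hippocampus Acly from -0.034 to 0.0032, in genotype by diet of brainstem Acly from -0.065 to 0.017, Fads1 from -0.098 to 0.015, Fasn from -0.016 to 0.057 and Scd1 from -0.081 to 0.051, in WT brainstem Elovl5 from -0.023 to 0.046, Elovl6 from -0.062 to 0.016, Fads1 from -0.048 to 0.034 and Fads2 from -0.062 to 0.014, in genotype by diet of hippocampus Fads2 from -0.055 to 0.012. The negative diet estimates of Scd1 and Scd2 in all 4 comparisons kept their sign under every alternative run.

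A diet difference of a member reached an adjusted p of 0.05 under 4 alternatives, each below the fold threshold. These were Scd2 of brainstem over both genotypes with DESeq2 (-0.09, adjusted p = 0.01002), Scd1 of hippocampus without the filter in TG (-0.21, adjusted p = 0.009887) and over both genotypes (-0.16, adjusted p = 0.008426), and the latter without WT HFD replicate 6 (-0.21, adjusted p = 0.007782). For TG against WT on HFD in hippocampus, Fasn reached it, also below the fold threshold, with 0 (-0.29, adjusted p = 0.01673) and 2 surrogate variables (-0.29, adjusted p = 0.001378) and without WT HFD replicate 8 (-0.25, adjusted p = 0.04611). The GC offset was not among the settings at which it did, and adjusted p rose to 0.616 across the runs. The median GC slope in hippocampus was 0.12 in WT HFD and -0.06 in TG HFD, and its part in this difference was not tested. Over all genes, TG against WT on HFD in hippocampus gave 30 calls, 515 with 0 and 634 with 2 surrogate variables, 96 with the GC offset, 51 without the filter and 14 with the block. In brainstem the calls were 19 on SD, or 4 with 0 surrogate variables, 4 with the GC offset and 9 with the block, and 7 on HFD, or 25 with 2 surrogate variables and 143 without the filter. Diet comparisons had at most 1 call, and up to 30 (WT hippocampus, 2 surrogate variables). Region calls were 8105, and 15134 without the filter.

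Replicate numbers recur across groups and regions. Libraries of the same number and group in both regions had correlated deviations in 9 of 17 pairs at a threshold of 0.1 (median r = 0.10, from -0.08 to 0.56). Pairs of the same group with different numbers reached it in 30 of 121 (median r = -0.02, from -0.38 to 0.35). No label says that equal numbers mark the same mouse, and the numbers were not taken to pair samples in the main fits. With the number as a block, 8 members were called between the regions and 0 otherwise, Scd1 in TG hippocampus was at -0.25, and the sign was opposite in genotype mean of brainstem Acaca -0.0061 and Acacb -0.067, in WT brainstem Elovl5 -0.014, in genotype mean of hippocampus Elovl6 -0.0089, in genotype by diet of brainstem Fads2 0.0050.

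Depth limits Acacb most, at 45 to 162 reads per library, and its diet intervals reached 0.50.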
